A study of Rattus norvegicus with 15 samples.

Results

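When a main artery is blocked, blood is diverted through neighbouring arteries, and the raised flow on their endothelium starts outward growth of the vessel wall. Smooth muscle cells, matrix proteins and their proteases, growth factors and nitric oxide are all known to take part in this collateral growth. The spontaneously hypertensive rat (SHR) is inbred and becomes hypertensive with age, and the Wistar Kyoto rat (WKY) is the related strain of normal pressure. The series title asks what lies behind impaired growth of collaterals in SHR. The values below describe how the strains differed in the change from control to collateral arteries of the mesentery, which feed the intestine.

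All 15 of the 15 arrays of the series entered this contrast, grouped by strain and vessel type as their titles give them. There were 3 arrays of WKY control arteries, 4 of WKY collateral arteries, 4 of SHR control arteries and 4 of SHR collateral arteries. Collateral arteries carried added flow after the arteries beside them had been occluded, and total RNA from each sample was read on an Affymetrix rat array. The time since occlusion, the age and sex of the rats and any pooling of arteries are not stated in the labels. Nor do the labels say that the arrays of 1 group are different rats, so p-values speak of the spread between these samples alone.

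The strain difference was computed as the SHR change minus the WKY change, each change being the mean of collateral arrays minus the mean of control arrays on the log2 scale of the deposited signal. A value below 0 therefore means that the collateral change was lower in SHR than in WKY. Leaving out array controls, 8740 probe sets remained, and the 6512 that passed a filter on low signal were tested, covering 3825 named genes. All 8 tested smooth muscle markers, among them Acta2 and Tagln, lay at or above the 40th percentile of signal on all 15 arrays, and 5 of the 11 tested endothelial markers did. In RNA from whole arteries, fewer cells of a type and less RNA per cell cannot be told apart.

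The array SHR collateral 3 was unlike the others, so values are given with it and without it ("14 arrays" below); an error after ± is the standard error from limma. Its Spearman correlation with the other 14 arrays lay between 0.496 and 0.657, against 0.805 to 0.931 among those 14. The spike-in controls, RNA added in fixed amounts, had a geometric mean signal of 172402 on it against 10427 to 56516 elsewhere, and its dim end was raised, with a 20th percentile of 171 where the others had 43.4 to 83.3. RNA quality, read as the log2 ratio of signal at the 3′ and 5′ ends of actin and Gapdh transcripts, also moved with the contrast. It went from a mean of 2.26 in WKY control to 2.41 in WKY collateral arrays, and from 2.09 in SHR control to 1.85 in SHR collateral arrays, a strain difference of -0.4. Its part in the results was not tested beyond refitting with the ratio as a covariate.

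The data show gene signals that were higher in collateral than in control arteries of WKY and level or lower in those of SHR, among them the actin crosslinker Flnc, the growth factor Tgfb3, the chaperone Cryab, the collagen Col12a1 and the metalloproteinase inhibitor Timp1. A mirror group, among it the glycosylation enzyme Mgat1, the receptor tyrosine kinase Erbb2 and the cell death regulator Bcl2l11, was higher in SHR collaterals and level or lower in WKY collaterals. For Mgat1 this held on 1 of 3 tested probe sets. For Bcl2l11, 2 arrays each of WKY collateral and SHR control lay under their own 20th percentile. None of these differences passed correction over all probe sets. In limma with Benjamini-Hochberg adjustment, 0 of 6512 probe sets (0%) had an adjusted p under 0.05 with 15 arrays, and 0 without SHR collateral 3, with smallest adjusted p-values of 0.99969 and 0.99998. Within the strains 0 passed either, and an unadjusted p under 0.05 was reached by 206 probe sets in WKY (3.16%; 14 arrays 321, 4.93%) and 245 in SHR (3.76%; 14 arrays 231, 3.55%). The median standard error of the strain difference was 0.73 with 15 arrays and 0.67 with 14. Everything below is therefore a description of estimates whose call did not hold, and "small p" stands for an unadjusted limma p under 0.05.

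A small p was reached by 124 probe sets (1.9%) with 15 arrays, 80 of them above 0 (1.23%) and 44 below 0 (0.676%). Without SHR collateral 3 there were 110 (1.69%), with 38 above 0 (0.584%) and 72 below 0 (1.11%). With no strain difference in any probe set, a share of 0.05 would be expected at this threshold, so neither total is an excess. The balance between the directions turned when SHR collateral 3 was left out. It also turned without WKY control 3, with 40 above 0 and 46 below. Leaving out SHR collateral 4 gave 230 above 0 and 94 below, and leaving out WKY control 1 gave 111 and 68. The other arrays, left out in turn, gave 58 to 104 above 0 and 29 to 53 below, and leaving out WKY collateral 2 gave the 29. With every array brought to an equal median, which lowers the median difference of all probe sets from 0.035 to -0.168, 50.7% of the small p values lay above 0 in place of 64.5%. With the spike-in signal as a covariate 47% did, and with array weights 50%. The share was higher in other settings, at 72% with no filter, 69% with the 3′ to 5′ ratio as a covariate and 67.1% with no variance trend.

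**Figure D1:**
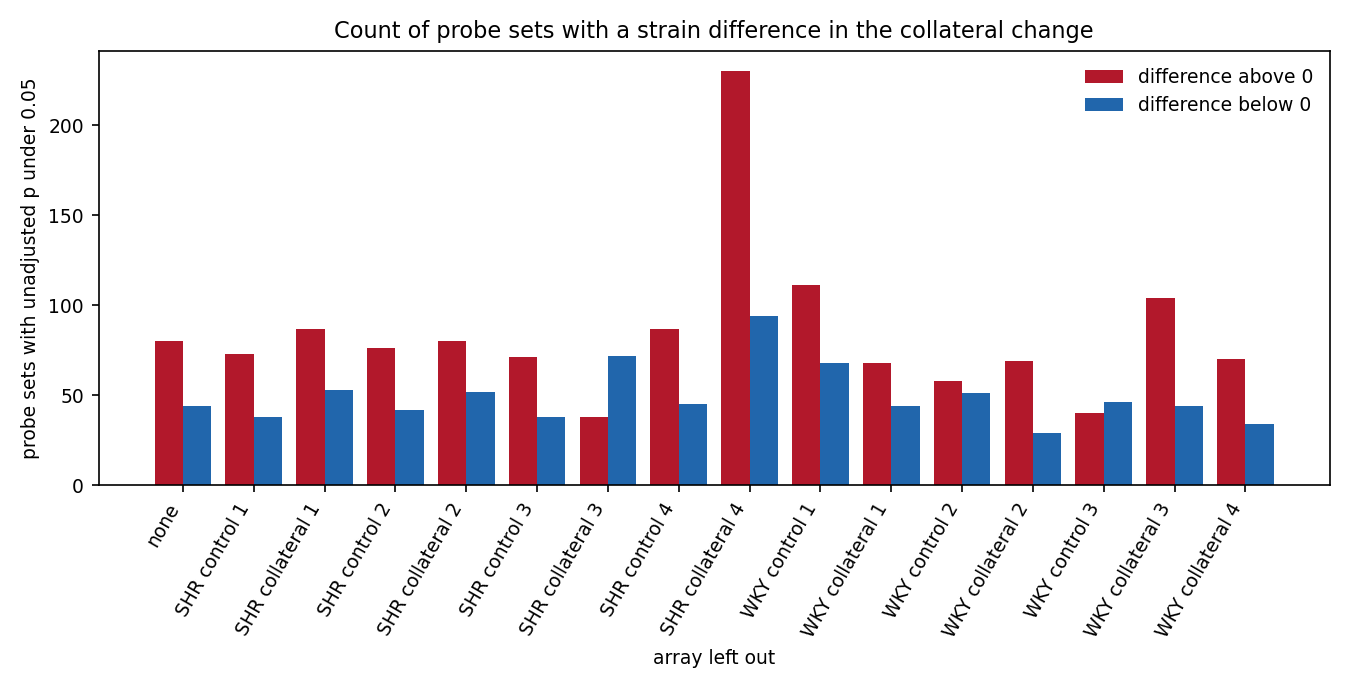
Bars give the number of probe sets (vertical axis) with an unadjusted limma p under 0.05 for the strain difference, above 0 in red and below 0 in blue, with no array left out and with each array left out in turn (horizontal axis). The bars of SHR collateral 3 (38 above, 72 below) and WKY control 3 (40 and 46) have the blue bar higher, and those of SHR collateral 4 reach 230 and 94.

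A small p with the same sign in both fits was found for 61 probe sets (0.937%), 30 above 0 (0.461%) and 31 below (0.476%). They were sorted by the changes within each strain. In 39 (0.599%) the changes had opposite signs and each was at least 0.5 on the log2 scale, 25 of them with the SHR change above the WKY change. In 12 (0.184%) the WKY change was at least 1 and the SHR change under 0.5 in size, 10 of them below 0. In 5 (0.0768%) the SHR change was at least 1 and the WKY change under 0.5 in size, and 5 more (0.0768%) were mixed. Opposite signs were common over all tested probe sets, at 46% with 15 arrays and 41.9% with 14, and 4.87% (14 arrays 4.21%) had opposite changes of at least 0.5 each whatever their p. The pattern of WKY alone held 4.32% (14 arrays 4.38%) of all tested probe sets whatever their p, and that of SHR alone 4.27% (14 arrays 3.15%). With the changes taken from the 14-array fit, 29 of the 39 opposite probe sets stayed opposite, 8 of the 12 stayed with WKY alone and 5 of 5 with SHR alone.

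**Figure D2:**
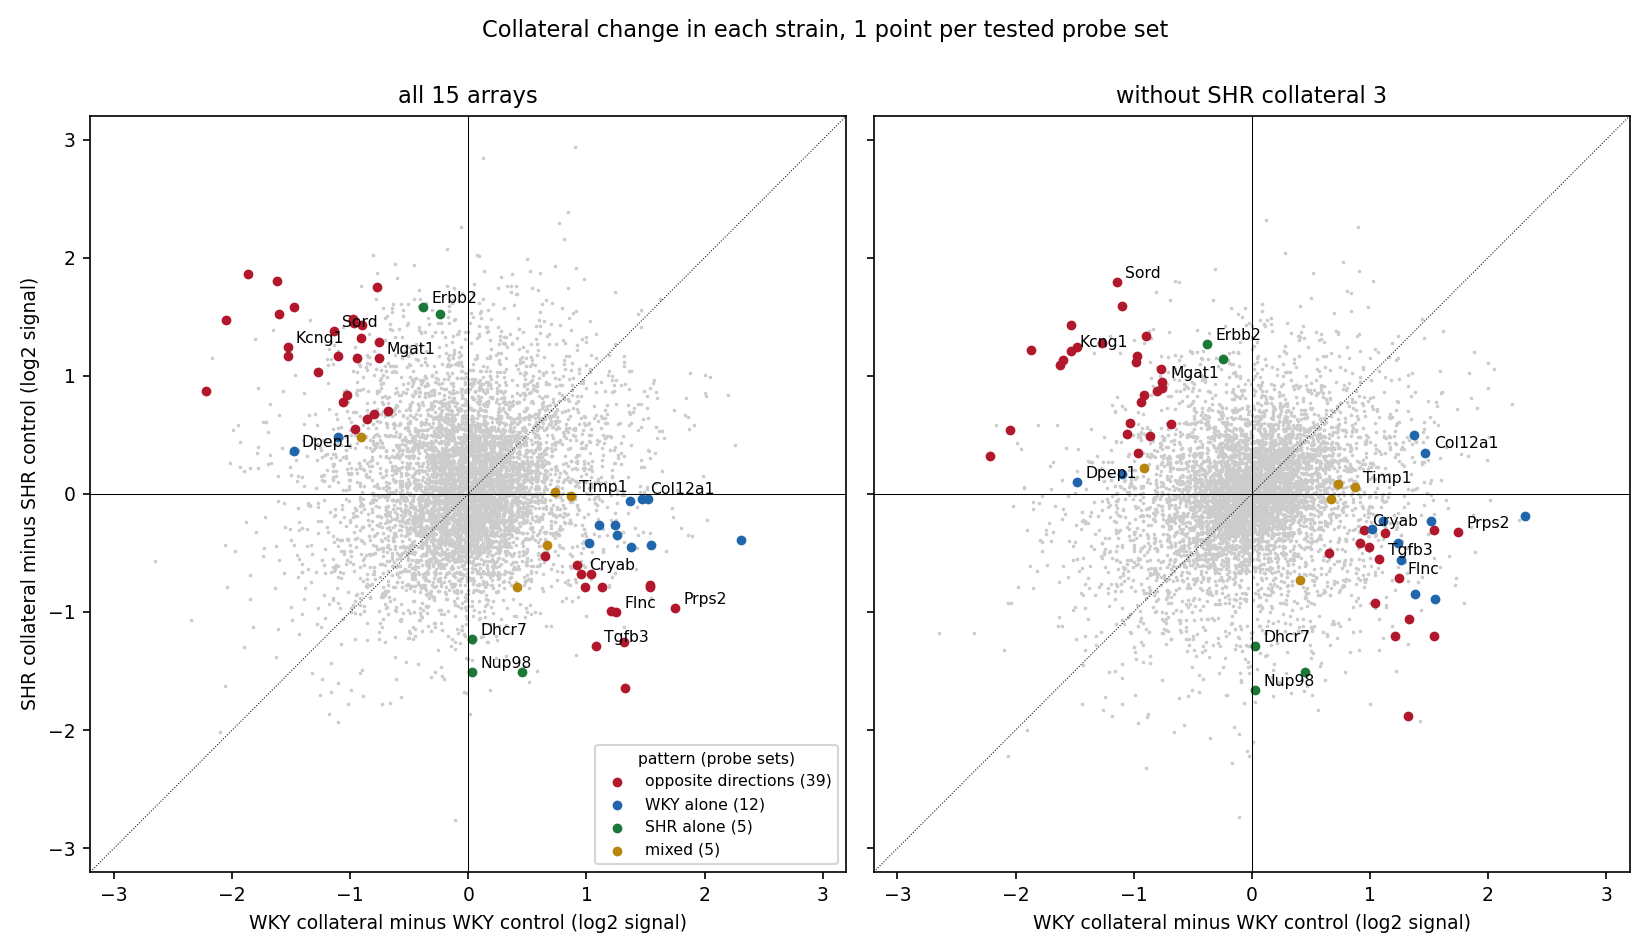
Each point is 1 of 6512 tested probe sets, with the WKY collateral change on the horizontal axis and the SHR collateral change on the vertical axis, both in log2 signal, for 15 arrays (left) and without SHR collateral 3 (right). Coloured points are the 61 probe sets with an unadjusted p under 0.05 in both fits, sorted by pattern, and they lie away from the dotted line of equal change, mostly in the upper left and lower right quadrants.

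The 2 directions differed in how bright their probe sets were. The 30 above 0 had a median log2 signal of 7.82, and 7 of them lay over the median of all tested probe sets, which was 8.94. The 31 below 0 had a median of 9.02, and 20 lay over it. Their median standard errors were 0.83 and 0.66. A description of the same 4 group means shows where the contrast came from. Among the 31 below 0, SHR stood above WKY in control arteries in 29, with a median gap of 0.96, and below WKY in collateral arteries in 29, with a median gap of -0.69. Among the 30 above 0, SHR stood below WKY in control arteries in 29, with a median gap of -1.08, and above it in collateral arteries in 30, with a median gap of 1.2. Because the rule selected on these means, the crossing itself is no added evidence.

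Among genes of the cytoskeleton, Flnc had the smallest p of all those named here. Filamin C crosslinks actin filaments in muscle cells. Probe set rc_AA799773_at read 493, 410 and 812 on the 3 WKY control arrays in the order of their numbers, and 1011, 2394, 992 and 1191 on the 4 WKY collateral arrays. On SHR it read 2362, 1319, 762 and 1536 in control arteries and 585, 900, 378 and 1136 in collateral arteries. In WKY every collateral array lay above every control array, a lack of overlap seen in 6.7% of all tested probe sets, while the SHR groups overlapped. The change was 1.25 ± 0.45 (SE, 4 against 3 arrays) in WKY. In SHR it was -1.0 ± 0.42 (4 against 4), or -0.71 without SHR collateral 3. The strain difference was -2.25 ± 0.62 (limma, adjusted p = 0.99969). Without SHR collateral 3 it was -1.96 ± 0.57, and leaving out any array kept it between -2.54 and -1.96.

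The second Flnc probe set, rc_AA799773_g_at, shares its source sequence and gave the same order of groups. It read 1434, 2422 and 2626 in WKY control, 2891, 7843, 3917 and 3674 in WKY collateral, 5585, 3232, 2970 and 4080 in SHR control and 2241, 4232, 2223 and 3225 in SHR collateral arteries. The WKY groups again did not overlap, with a change of 1.02, while SHR stood at -0.42, so the strain difference was -1.45 ± 0.49 (14 arrays -1.32 ± 0.48). Both probe sets read the same arrays and are not independent of each other.

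Cryab, the small heat shock protein alpha B-crystallin that protects muscle filaments, followed the same course on both of its tested probe sets. M55534mRNA_s_at read 11753, 10643 and 7799 in WKY control arteries and 10850, 25308, 17151 and 28626 in WKY collaterals, and 15865, 9759, 9065 and 14188 against 5492, 15384, 3440 and 10421 in SHR. Each strain's groups overlapped. The strain difference was -1.63 ± 0.59, and -1.26 ± 0.50 without SHR collateral 3, which held the lowest value of all. Without that array the SHR change went from -0.68 to -0.31. X60351cds_s_at gave -1.37 ± 0.61 (14 arrays -1.34 ± 0.62), with a WKY change of 1.11 without overlap and an SHR change of -0.26.

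Coro7, a coronin of the Golgi apparatus that takes part in vesicle traffic, read 352, 637 and 750 in WKY control and 863, 876, 1649 and 956 in WKY collateral arteries on probe set Y15054_at. In SHR it read 891, 1326, 1178 and 965 in control and 698, 894, 486 and 835 in collateral arteries, where only the 894 reached into the control range. The changes were 0.92 in WKY and -0.60 in SHR (14 arrays -0.42), a difference of -1.52 ± 0.49 (14 arrays -1.34 ± 0.45). With the 3′ to 5′ ratio as a covariate it stood at -1.13 and no longer had a small p. Of the 20 tested genes in the list of cytoskeleton and actin crosslinkers, 2 had a small p, Flnc and Tln1, both below 0, and without SHR collateral 3 Flnc alone did. The list's median difference was -0.26, and -0.07 without that array, beside 0 and -0.01 over all 3825 genes. Of those 3825 genes, each read by its brightest probe set, 43 had a small p above 0 and 29 below. Without SHR collateral 3 there were 19 and 44, and these counts stand beside every list below.

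**Figure D3:**
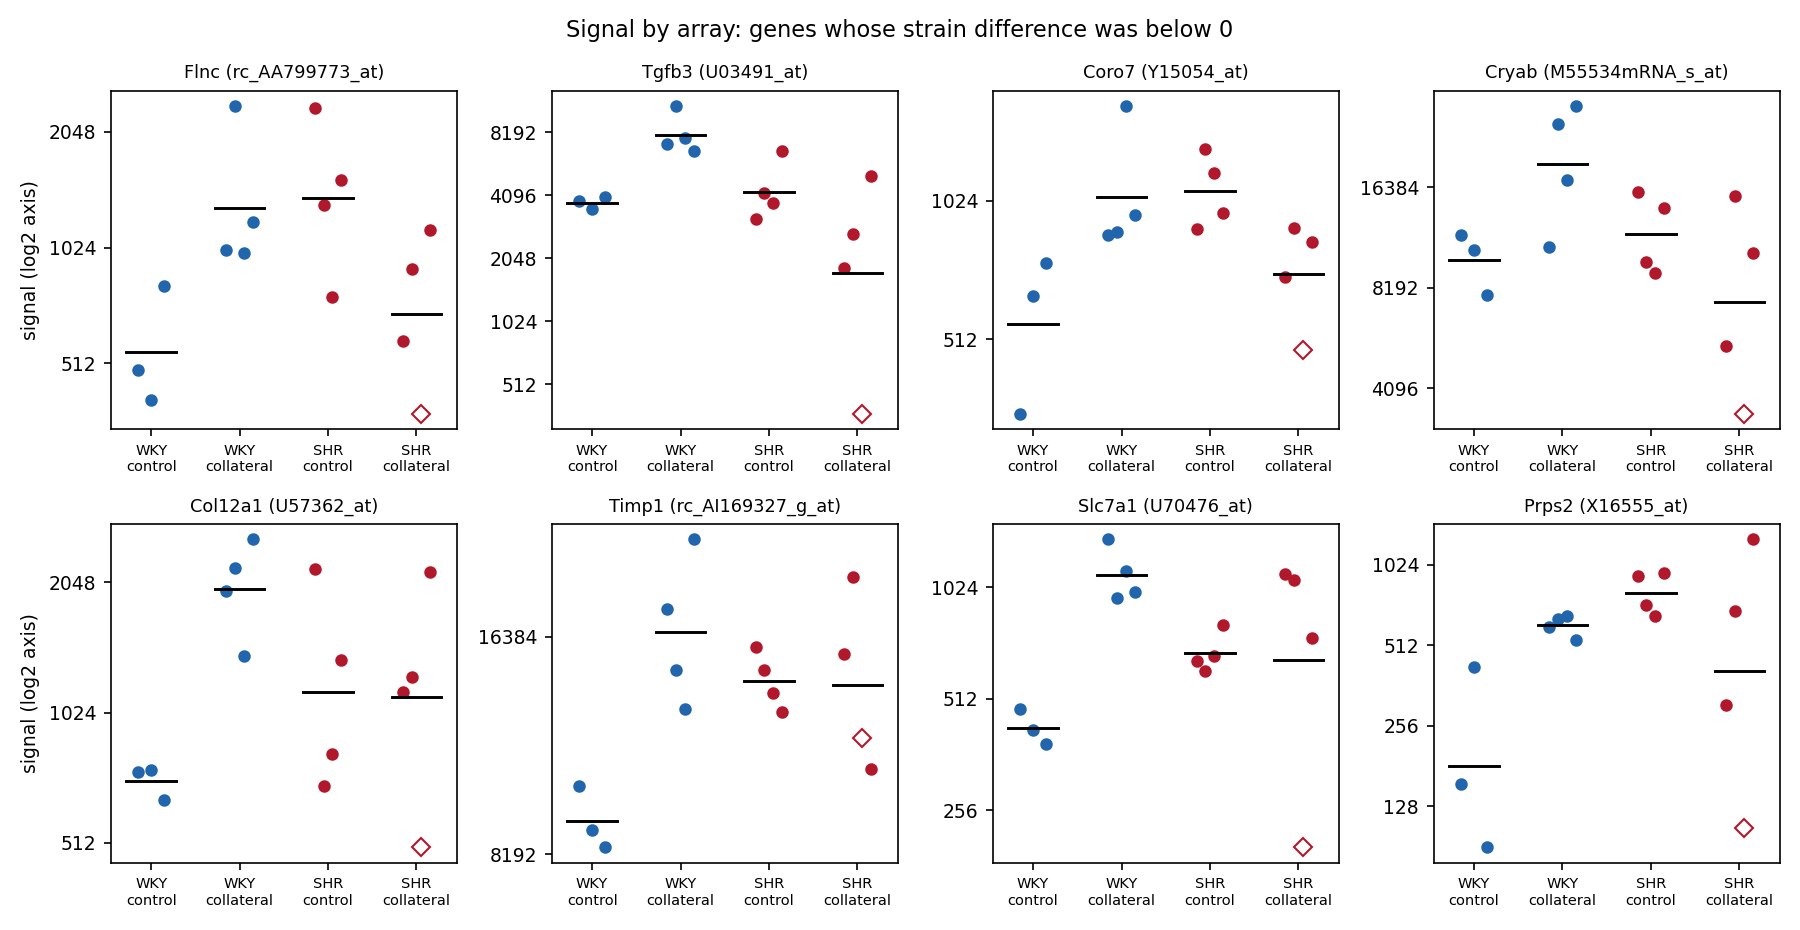
Signal on a log2 axis for 8 probe sets with a strain difference below 0, with 1 point per array in each of the 4 groups (WKY blue, SHR red, SHR collateral 3 as an open diamond) and a black line at the mean of the log2 signal. In 7 of the panels, all but Cryab, every WKY collateral point lies above every WKY control point, while the SHR groups overlap in all 8.

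Tgfb3, transforming growth factor beta 3, is a secreted ligand that acts on matrix production and cell growth. U03491_at read 3829, 3510 and 4032 in WKY control arteries, a narrow range, and 7222, 10968, 7695 and 6648 in WKY collaterals, all higher. SHR gave 3140, 4223, 3761 and 6674 in control and 1835, 2676, 369 and 5082 in collateral arteries. The 369 belongs to SHR collateral 3, and without it the SHR change went from -1.29 to -0.55. The strain difference was -2.37 ± 0.77 with 15 arrays and -1.62 ± 0.44 without that array. The second probe set, U03491_g_at, shares its source sequence and gave -1.92 ± 0.64 (14 arrays -1.46 ± 0.51). On it the WKY control arrays read 5692, 7237 and 8057 and the WKY collaterals 10407, 20455, 18705 and 13355.

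Of 24 tested genes of TGF-beta and BMP signalling, Tgfb3 was the only one with a small p, in either fit, beside 1.9% of all tested probe sets with 15 arrays and 1.69% with 14, and the list's median difference was 0.04, or -0.02 without SHR collateral 3. The other ligands Tgfb1 and Tgfb2 stood at 0.88 ± 1.08 (SE) and -0.60 ± 0.97, and the signal transducers Smad1 and Smad3 at 1.79 ± 0.90 and 1.49 ± 1.09. The co-receptor Tgfbr3 stood at 1.42 ± 0.70 (14 arrays 1.29). None of these other members had a small p.

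Matrix genes with a small p in both fits were Col12a1 and Timp1. Col12a1 encodes a collagen that sits on the surface of collagen fibrils. U57362_at read 748, 754 and 644 in WKY control arteries and 1954, 2207, 1383 and 2574 in WKY collaterals, with no overlap and a change of 1.47 ± 0.45 (SE). The SHR values of 2201, 694, 822 and 1353 in control and 1144, 1235, 500 and 2168 in collateral arteries overlapped widely, with a change of -0.04. The strain difference was -1.51 ± 0.61 (14 arrays -1.12 ± 0.51). Without SHR control 1 it no longer had a small p. Of 31 tested collagens and matrix proteins it alone had a small p, and the list's median was -0.14, or 0.01 without SHR collateral 3.

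Timp1 is a secreted inhibitor of metalloproteinases. Probe set rc_AI169327_g_at read 10170, 8855 and 8374 in WKY control and 17926, 14719, 12999 and 22345 in WKY collateral arteries, again without overlap. In SHR the control arrays read 15839, 14759, 13681 and 12875, all above the WKY control arrays, and the SHR collaterals read 15498, 19795, 11866 and 10760. The change was 0.87 ± 0.26 in WKY and -0.02 in SHR, a difference of -0.89 ± 0.36 (14 arrays -0.81 ± 0.32). Its other probe set, rc_AI169327_at, gave -0.53, with no small p. Timp1 was the only 1 of 12 tested metalloproteinases and inhibitors with a small p, Timp2 stood at -0.42 ± 0.35 and Mmp2, the gelatinase, at -0.15 ± 0.41.

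Slc7a1, in the pattern of WKY alone, carries arginine, the substrate of nitric oxide synthase, into cells. U70476_at read 480, 422 and 386 in WKY control and 1379, 959, 1130 and 994 in WKY collateral arteries, so the lowest collateral value was well above the highest control. SHR read 648, 610, 666 and 808, then 1111, 1068, 203 and 747, and the 203 was SHR collateral 3. The strain difference was -1.43 ± 0.63 with that array and -0.87 ± 0.38 without it, as the SHR change went from -0.06 to 0.50. The gene's probe sets disagreed: rc_AA957917_s_at gave -1.45 (14 arrays -1.23, no small p) and L10152_s_at gave 1.36, the opposite sign.

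Over the 23 tested genes of the nitric oxide and cGMP pathway, the median difference was -0.13, or -0.17 without SHR collateral 3. Read by its brightest probe set, Slc7a1 was the only one with a small p, and without that array 0 were. Nos3, the endothelial synthase, stood at 0.36 ± 0.81 (SE), and Ddah1, which breaks down an inhibitor of the synthase, at -0.47 ± 0.41. For Nos3 the error is over the size of the estimate.

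Prps2 makes phosphoribosyl pyrophosphate, the starting point of nucleotide synthesis. X16555_at read 155, 425 and 90 in WKY control and 598, 642, 661 and 534 in WKY collateral arteries, which did not overlap. SHR read 925, 726, 658 and 950 in control and 306, 685, 106 and 1272 in collateral arteries, which did. The difference was -2.72 ± 0.88, the lowest over all genes when each is read by its brightest probe set, and -2.07 ± 0.70 without SHR collateral 3, whose 106 lay under that array's own 20th percentile. Without that array the SHR change went from -0.97 to -0.32.

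Acads is a dehydrogenase of short fatty acids in mitochondria. J05030_at read 656, 640, 1056 and 640 in SHR control arteries and 477, 626, 207 and 509 in SHR collaterals, which did not overlap, as in 1.72% of all tested probe sets. WKY read 618, 232 and 208, then 382, 622, 900 and 666, with overlap. The SHR change was -0.79 (14 arrays -0.45), and the difference was -1.78 ± 0.65 (14 arrays -1.44 ± 0.57). Of 23 tested genes of fatty acid oxidation it alone had a small p, and the list's median moved from -0.17 to 0.02 without SHR collateral 3.

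Gclm is the modifier subunit of the enzyme that starts glutathione synthesis. S65555_at read 279, 61 and 75 in WKY control, 323, 448, 119 and 312 in WKY collateral, 285, 413, 351 and 442 in SHR control and 58, 71, 571 and 244 in SHR collateral arteries. SHR collateral 3 was the highest array here, and without it the SHR groups did not overlap, as in 3.9% of all tested probe sets. The difference was -2.57 ± 1.03 and widened to -3.2 ± 0.92 without it, but it missed a small p in 4 of 15 leave-one-out fits. Its values near 60 lay under the 20th percentile of their arrays. The gene's brightest probe set gave -1.46, with a small p only while that array was kept, and its remaining probe set gave -1.10, or -0.01 without it. Of 27 genes of oxidant sources and antioxidant enzymes Gclm alone had a small p, and without SHR collateral 3 0 did.

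Among vasoactive and clotting regulators, Klk1 and Thbd had a small p in both fits. Klk1, tissue kallikrein, releases kinins that widen vessels, and its probe set M19647_f_at can read near-identical kallikrein genes, so the gene is uncertain. It read 230, 260 and 127 in WKY control and 356, 510, 457 and 586 in WKY collateral arteries without overlap, and 389, 403, 355 and 428 against 138, 693, 486 and 197 in SHR, where collaterals scattered on both sides of the controls. The difference was -1.60 ± 0.71 (14 arrays -1.82 ± 0.69). It was the only 1 of 11 tested genes in the list of the renin-angiotensin system with a small p. The angiotensin receptor Agtr1a stood at 0.15 ± 0.81 and the converting enzyme Ace at 0.56 ± 0.62.

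Thbd, thrombomodulin, holds clotting in check on the endothelium. U90121_at read 137, 45 and 230 in WKY control, 270, 159, 395 and 266 in WKY collateral, 383, 334, 293 and 86 in SHR control and 143, 184, 187 and 42 in SHR collateral arteries, with overlap in both strains. Its difference of -2.20 ± 0.98 (14 arrays -2.41 ± 1.00) was not seen on the brighter probe set AF022742cds_at, which stood at 0.10. The gene therefore has no settled value.

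Further genes below 0 were Ddn, dendrin, known from kidney podocytes and neurons, Prrg1, a membrane protein with a Gla domain, and Tmem116. Prrg1 (rc_AA800503_at) had separate WKY groups, at 199, 90 and 62 against 303, 343, 289 and 256, and SHR groups that covered one range, at 327, 268, 517 and 368 against 326, 211, 516 and 415. Its difference was -1.56 ± 0.67 (14 arrays -1.75 ± 0.66). Ddn (Y09000_at) stood at -1.83 ± 0.77 (14 arrays -2.23 ± 0.71) and at -1.06, with no small p, with the 3′ to 5′ ratio as a covariate. Tmem116 (rc_AA799932_at) stood at -2.33 ± 0.83 (14 arrays -1.85 ± 0.72), with an SHR change of -0.79 (14 arrays -0.31). The groups of Ddn and of Tmem116 overlapped in both strains.

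In the pattern of SHR alone, 3 genes were below 0. Nup98, a nuclear pore protein, read 721, 859, 792 and 797 in SHR control arteries on rc_AA799609_g_at and 158, 170, 383 and 582 in SHR collaterals, with no overlap. The WKY values of 390, 499 and 734 against 592, 801, 688 and 251 gave a change of 0.03. Its difference was -1.54 ± 0.67 (14 arrays -1.69 ± 0.67), but its other probe sets gave 0.43 and 0.34. Fzd2 (L02530_at), a receptor for Wnt ligands, read 570, 374, 791 and 645 in SHR control and 219, 80, 201 and 465 in SHR collateral arteries, so that only the 465 reached the control range. Its changes were -1.51 in SHR and 0.45 in WKY, a difference of -1.96 ± 0.83 (14 arrays -1.96 ± 0.86). With the 3′ to 5′ ratio as a covariate Nup98 stood at -1.44 and Fzd2 at -1.88, and neither had a small p.

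Dhcr7 carries out the closing step of cholesterol synthesis. AB016800_g_at read 884, 689, 1051 and 591 in SHR control and 282, 194, 382 and 596 in SHR collateral arteries, where the 596 of SHR collateral 4 just passed the lowest control. WKY read 556, 602 and 774 against 435, 858, 970 and 498, a change of 0.03. The difference was -1.26 ± 0.58 (14 arrays -1.33 ± 0.57), and it stood at -0.92, with no small p, when the 3′ to 5′ ratio was a covariate. The gene's other probe set gave -0.34.

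The other enzymes of cholesterol synthesis lay mostly on the same side of 0. Of 13 tested genes 10 were below 0 in both fits, with a median difference of -0.63, and -0.50 without SHR collateral 3, beside 50% and 51.2% of all genes below 0. Dhcr7 alone had a small p. Mvk, mevalonate kinase, had changes of 0.13 in WKY and -0.49 in SHR. The isomerase Idi1 had changes of 1.14 in WKY and 0.50 in SHR, a difference of -0.63 ± 0.43 (SE). Farnesyl diphosphate synthase Fdps stood at 1.16 and 0.47, a difference of -0.69 ± 0.53, and Mvd, which makes the isoprene unit, at 1.60 and 0.47, a difference of -1.13 ± 0.85. Fdft1, squalene synthase, went the other way at 1.15 ± 0.69. The list's median stayed below 0 in all 28 other settings tried, between -0.93 and -0.30. Those settings refit the same arrays, so the kept sign is no added evidence.

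On the other side of 0, Mgat1 and Erbb2 had SHR groups that did not overlap. Mgat1 encodes the enzyme that starts complex N-glycans on proteins of the secretory pathway. E07296cds_s_at read 202, 351, 386 and 277 in SHR control and 626, 598, 995 and 494 in SHR collateral arteries, with no overlap. WKY read 253, 478 and 321 in control and 247, 103, 267 and 235 in collateral arteries, where the ranges touched. The changes were -0.76 in WKY and 1.15 in SHR, a difference of 1.91 ± 0.63 (14 arrays 1.71 ± 0.61). The gene's other probe sets did not show it, at -0.16 and -0.22.

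Erbb2 encodes a receptor tyrosine kinase of the epidermal growth factor receptor family. X03362_at read 139, 153, 196 and 222 in SHR control and 485, 473, 1010 and 322 in SHR collateral arteries, again without overlap. WKY read 278, 113 and 204 against 96, 189, 149 and 154, which overlapped. The SHR change was 1.58 and the WKY change -0.38, a difference of 1.96 ± 0.70 (14 arrays 1.65 ± 0.67). It was the only 1 of 30 tested angiogenic growth factors and receptors with a small p, in either fit, and the list's median was 0.21, or 0.09 without SHR collateral 3. Esm1, an endothelial proteoglycan, had the lowest value of that list at -1.14.

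Bcl2l11 encodes Bim, which promotes programmed cell death. AF065432_s_at read 157, 209 and 229 in WKY control, 46, 169, 95 and 32 in WKY collateral, 165, 186, 62 and 71 in SHR control and 302, 470, 649 and 117 in SHR collateral arteries. Both strains' groups overlapped, and 2 arrays each of WKY collateral and SHR control lay under their own 20th percentile. The difference was 3.06 ± 0.99 (14 arrays 2.72 ± 0.98). The second tested probe set, AF065433_at, had the same sign at 1.59, with a small p only in the fit of 15 arrays.

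Sord, sorbitol dehydrogenase of the polyol pathway, was singled out after its values were seen. It was the only 1 of 6512 probe sets (0.0154%) whose groups did not overlap in either strain, in opposite directions, once SHR collateral 3 was left out, and with 15 arrays there were 0. The probe set rc_AI030175_s_at read 236, 210 and 386 in WKY control and 182, 115, 64 and 162 in WKY collateral arteries, and 182, 59, 185 and 69 in SHR control and 405, 437, 121 and 296 in SHR collateral arteries. The 121 was SHR collateral 3. That value, the 59 and 69 in SHR control and the 64 in WKY collateral arteries lay under their arrays' own 20th percentile. The difference was 2.52 ± 0.87, and 2.93 ± 0.80 without SHR collateral 3. The 15-array difference stood at 1.77 once 68.5 had been added to every signal, so its size depends on values near background. The gene's brighter probe set X74593_at gave -0.14. By comparison, 30 probe sets (0.461%) were apart in both strains in the same direction without SHR collateral 3.

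**Figure D4:**
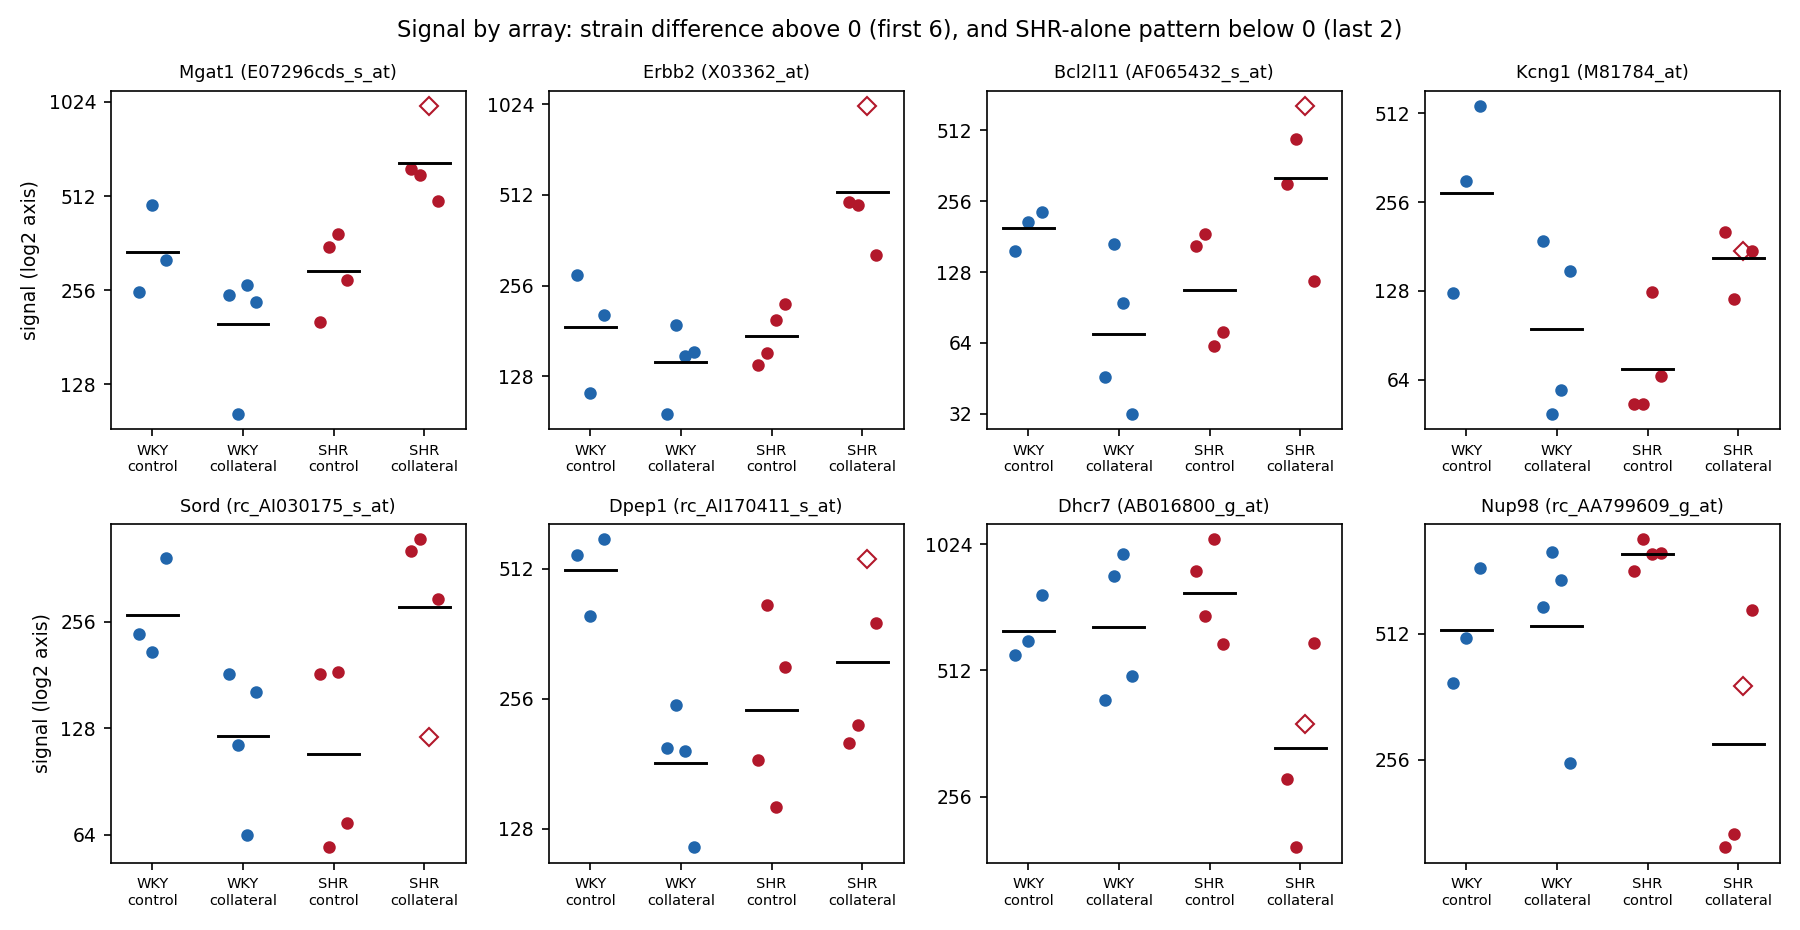
Signal on a log2 axis for 6 probe sets with a strain difference above 0 and 2 of the pattern of SHR alone below 0 (Dhcr7, Nup98), with 1 point per array in each of the 4 groups (WKY blue, SHR red, SHR collateral 3 as an open diamond) and a black line at the mean of the log2 signal. SHR collateral points lie wholly above SHR control points for Mgat1 and Erbb2 and wholly below them for Nup98, and WKY collateral points lie wholly below WKY control points for Sord and Dpep1.

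Ion transport genes above 0 were dim on many arrays. Kcng1, a modifier subunit of potassium channels, read 126, 302 and 542 against 189, 49, 59 and 149 in WKY and 53, 53, 127 and 66 against 202, 120, 175 and 175 in SHR (M81784_at). The difference was 2.77 ± 0.93 (14 arrays 2.74 ± 0.95), with 3 SHR control and 2 WKY collateral arrays under their 20th percentile. Kcnc1, a pore subunit of fast potassium channels, stood at 3.42 ± 1.26 (14 arrays 2.71 ± 1.16), also with 3 SHR control arrays that dim. With a constant of 68.5 added before log2 these differences were 1.79 and 2.22, so their size depends on values near background.

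Slc8a1, the sodium and calcium exchanger of muscle membranes, was brighter. X68812_s_at read 1476, 1303 and 1469 in WKY control, 1680, 362, 1165 and 415 in WKY collateral, 1169, 779, 281 and 330 in SHR control and 572, 1048, 2611 and 1321 in SHR collateral arteries, with overlap in both strains. The difference was 2.09 ± 0.81 (14 arrays 1.72 ± 0.78), but 1.29, with no small p, with the 3′ to 5′ ratio as a covariate. Its other 4 tested probe sets lay between -0.76 and 0.83. Of 28 tested connexins and ion channels, Kcnc1 and Slc8a1 had a small p, both above 0. Of all tested probe sets 1.9% had one with 15 arrays and 1.69% with 14. The list's median was 0.25, or 0.27 without SHR collateral 3.

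Nr4a2, an orphan nuclear receptor induced early after stimulation, had separate WKY groups on U01146_s_at, at 1677, 798 and 878 against 730, 416, 538 and 700. SHR control arteries started lower, at 186, 502, 431 and 771, and SHR collaterals read 697, 771, 873 and 380. The difference was 1.49 ± 0.63 (14 arrays 1.35 ± 0.63). The gene's other probe set gave 1.74 (14 arrays 1.06), with no small p in either fit. Without SHR collateral 3 that probe set was lower in collaterals of both strains, by -1.51 in WKY and -0.44 in SHR. Of 30 tested immediate early genes Nr4a2 alone had a small p, and without SHR collateral 3 Fosl1 had one too, below 0. The list's median was -0.02, or 0.18 without that array.

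Dpep1 and Suox made up the pattern of WKY alone above 0. Dpep1, a membrane dipeptidase, read 551, 397 and 598 in WKY control and 197, 247, 194 and 116 in WKY collateral arteries on rc_AI170411_s_at, with no overlap, against 185, 422, 144 and 303, then 202, 223, 540 and 384 in SHR. Its difference was 1.84 ± 0.69 (14 arrays 1.58 ± 0.67), and 0.36 on its other probe set. Suox (rc_AA891738_at), sulfite oxidase of mitochondria, stood at 1.57 ± 0.61 (14 arrays 1.27 ± 0.56), with overlapping groups in both strains.

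The remaining genes above 0 were Pi4ka, a lipid kinase, Prb3, a proline-rich protein known from saliva, and Ndufa4l2, a paralogue of a respiratory chain subunit. Pi4ka (D83538_at) read 364, 308 and 369 in WKY control and 208, 133, 191 and 223 in WKY collateral arteries, which were wholly lower, and 292, 73, 47 and 192 against 343, 306, 381 and 252 in SHR. Its difference was 2.33 ± 0.79 (14 arrays 2.24 ± 0.80), with 0.61 and -0.16 on its other probe sets. Prb3 (L08134_at) had the highest difference of all genes, 3.73 ± 1.26 (14 arrays 3.09 ± 1.19), but 3 of 4 WKY collateral and 2 of 4 SHR control arrays lay under their 20th percentile, and with the constant added it was 2.41. Ndufa4l2 (AA684960_f_at, a probe set that can read a sequence family) stood at 1.75 ± 0.66 (14 arrays 1.37 ± 0.59). Its other tested probe sets stood at 1.90 (14 arrays 1.18) and 0.25 (14 arrays -0.02), with no small p in either fit.

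How far the probe sets of a gene bore each other out differed. Of the 31 genes named above with a small p in both fits, 17 had several tested probe sets. In 3 of these, Flnc, Tgfb3 and Cryab, every tested probe set had a small p in both fits. The probe sets of Flnc share 1 source sequence, as do those of Tgfb3. All were read on the same arrays, so their agreement is not independent. The 17 genes held 43 tested probe sets in all, of which 20 had it. The other 14 genes had 1 tested probe set each. All 34 probe sets behind these genes kept the sign of their difference in each of the 15 leave-one-out fits. They were chosen by a small p with the same sign with and without SHR collateral 3, so the kept sign is no added evidence. A small p was kept in all 15 fits by 21 of them. The other 13 lost it in at least 1, namely those of Timp1, Gclm, Col12a1, Ddn, Nr4a2, Fzd2, Prrg1, Nup98, Slc7a1, Klk1, Thbd and Dhcr7 and the X60351cds_s_at probe set of Cryab, with as few as 7 of 15 fits kept. Among these fits, the fewest of the 34 with a small p, 26, were found without WKY control 2. With the 3′ to 5′ ratio as a covariate, 23 of the 34 kept a small p. Those that lost it were the probe sets of Coro7, Pi4ka, Sord, Slc8a1, Suox, Ddn, Fzd2, Prrg1, Nup98, Thbd and Dhcr7.

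Cell type markers were set beside these values, as a marker that moves with the contrast bears on every gene of those cells. All 8 tested smooth muscle markers had a difference below 0, with a median of -0.53, and 7 of 8 did without SHR collateral 3, with a median of -0.16. Their summed signal ranged from 229551 to 361229 in WKY control, 268991 to 451650 in WKY collateral, 184688 to 355976 in SHR control and 253457 to 484848 in SHR collateral arteries without that array, which had 95436. The groups overlapped. Acta2, smooth muscle actin, stood at -0.39 and Actg2 at -1.11, or at -0.17 and -0.52 without that array. Among the 17 contractile genes 14 were below 0 with 15 arrays and 9 without SHR collateral 3, with medians of -0.39 and -0.04. Over all genes 50% and 51.2% were below 0. The part of smooth muscle content in the values of Flnc and Cryab, which muscle cells express, was not tested.

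Adipocyte markers moved the other way. Their median difference over 11 tested genes was 0.54, or 0.47 without SHR collateral 3, with a WKY change of -0.94 and an SHR change of -0.14. The summed signal ran from 11782 to 45701 in WKY control, 6865 to 21701 in WKY collateral, 9756 to 91847 in SHR control and 11937 to 53916 in SHR collateral arteries, and the ranges of all 4 groups overlapped. Without SHR control 4 the median was 0.00. Fabp4, the fatty acid binding protein of fat cells, read 739 on that array against 4221 to 19283 on the other SHR control arrays. The part of fat around the vessels in the values above 0 was not tested.

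Endothelial markers summed to 8531 to 11884 in WKY control and 13276 to 18367 in WKY collateral arteries, and to 6322 to 7073 and 5335 to 12291 in SHR (5335 to 9380 without SHR collateral 3). Without Esm1 the WKY ranges were 7502 to 9894 and 5001 to 12544 over 10 markers and overlapped. Their median difference was 0.18, or -0.09 without SHR collateral 3. Lymphocyte markers went from 0.46 to -0.08 and blood cell markers from -0.32 to -0.89 when that array was left out, and monocyte and macrophage markers from -0.01 to -0.22. No marker list had a small p in both fits for any gene of it as read by its brightest probe set.

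Among the larger pathways, cytosolic ribosomal proteins had 33 of 37 genes below 0, and 30 without SHR collateral 3, with medians of -0.24 and -0.11 and 0 small p values. Under quantile normalization that median was -0.06. Oxidative phosphorylation had a median of -0.10 over 36 genes, and 0.07 without that array. The 33 adrenergic, endothelin and prostanoid regulators had a median of 0.41 that stood at 0.08 without it, with 0 small p values. Plasminogen and coagulation genes had 10 of 13 below 0 in both fits, with medians of -0.11 and -0.22, and Plaur, the urokinase receptor, had the lowest value at -1.16. Over all 3825 genes, 43 had a small p above 0 and 29 below, or 19 and 44 without SHR collateral 3.

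**Figure D5:**
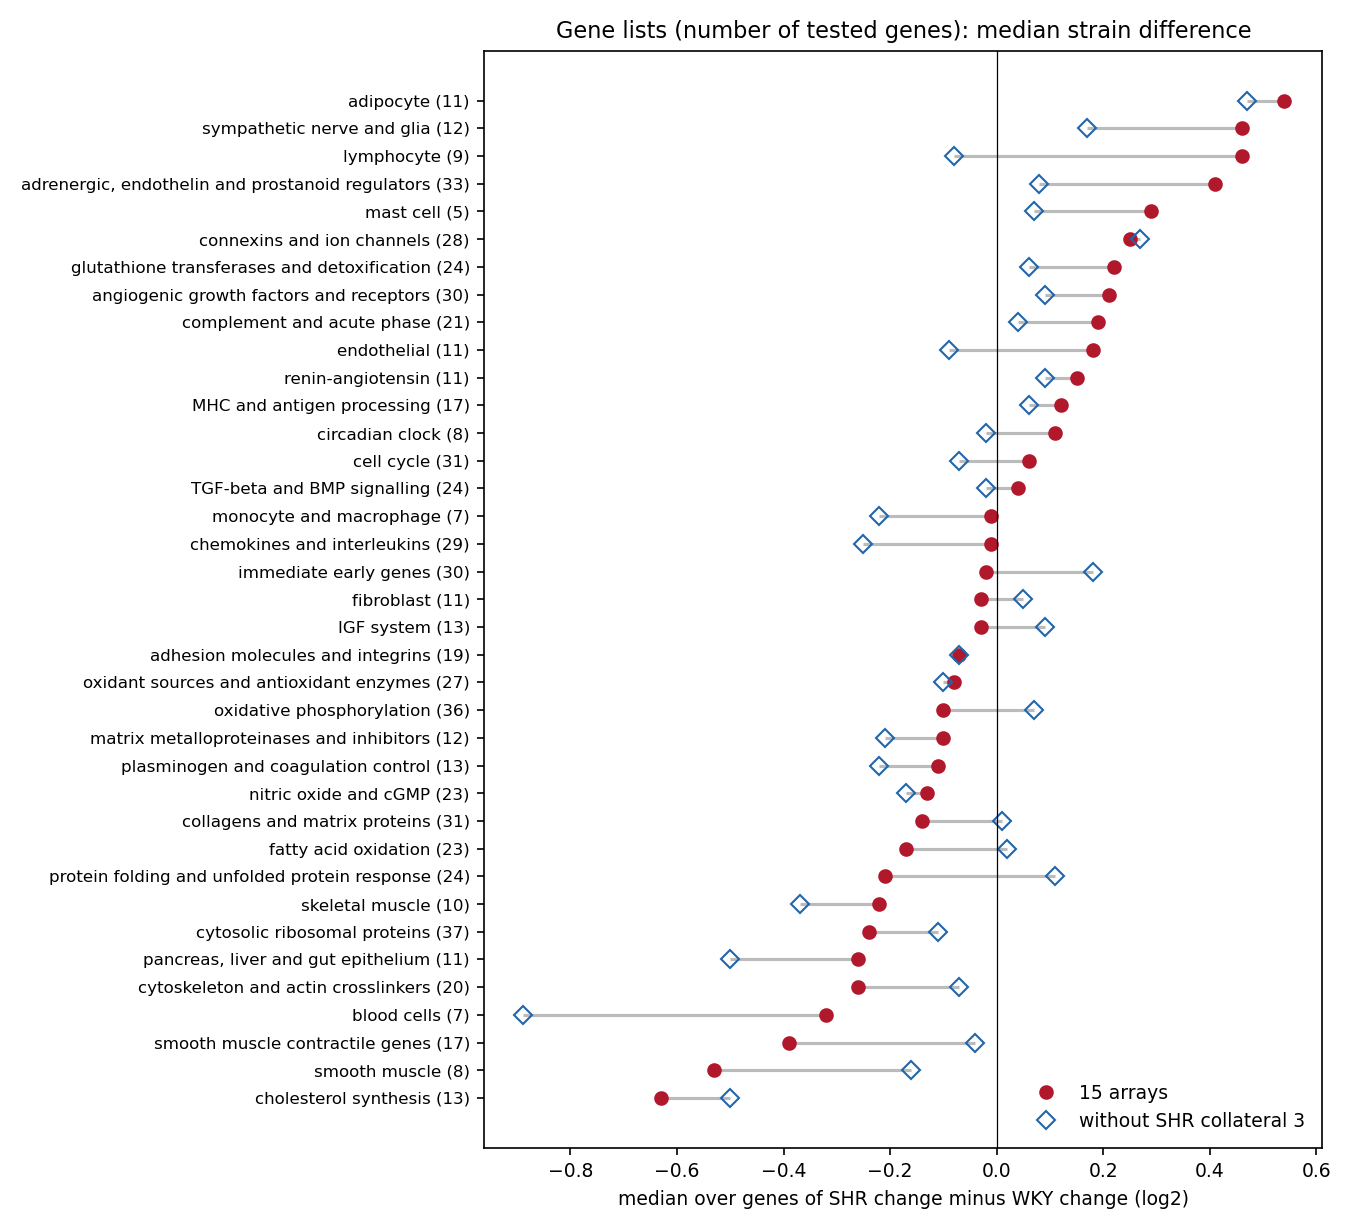
For each gene list (number of tested genes in brackets), the median over its genes of the SHR change minus the WKY change, in log2 signal, with 15 arrays (red) and without SHR collateral 3 (open blue diamond). Cholesterol synthesis is lowest with 15 arrays at -0.63 and adipocyte markers highest at 0.54, and blood cell, lymphocyte and smooth muscle lists move far when 1 array is left out.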

How the data were processed

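Per the labels' protocols, total RNA of mesenteric arteries was turned into biotin-labelled cRNA. The authors used GCOS and MAS5 to make the deposited signal, per the submitters' processing notes (versions not given in the sources used here). Trimmed means were nearly equal on all arrays, so the signals had been scaled, and a scaled signal depends on what else is on the array.

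Signals were floored at 1 (12 values lay below) and taken to log2. Array controls (59) were not tested. Tests covered probe sets that reached the 40th percentile of an array on 3 or more arrays. Of 8740 probe sets, 7006 had 1 gene symbol in the platform annotation, 308 several and 1426 none, and the latter kinds were left unnamed. Suffixes _at and _g_at of one identifier share a source sequence.

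limma 3.58.1 in R 4.3.3 fitted a mean per group over all 15 arrays, with a variance trend, moderated two-sided tests and adjustment by Benjamini and Hochberg over 6512 probe sets at 0.05 (residual degrees of freedom 11, prior 7.19). The fit was repeated without SHR collateral 3 (10 and 7.07). The code was tested on simulated data. Gene lists used the brightest probe set of each gene.

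Members and lists were chosen with earlier results of these data known. Genes were named by smallest p, up to 5 per pattern and direction, plus up to 2 per list with an unadjusted p under 0.05 in both fits. Sord was added after its values were seen. Precision is limited by the number of arrays. Alternatives were other scalings, filters, array weights, a replicate block, covariates and each array left out.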

Additional observations from a re-analysis of the deposited data

Results flagged for a closer look

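In groups of 4 arrays, the probe sets of the named genes were screened for a single array far from the other 3. The same screen took in the 3′ to 5′ ratio and the log2 of the spike-in signal and of the 20th percentile. Of 111 groups of values, 3 held such an array, and chance alone gives about 1 in 20. SHR collateral 3 was not flagged, either on these quality measures or on the named probe sets.

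Acads (J05030_at) had a log2 signal of 10.04 on SHR control 3, while the other SHR control arrays lay between 9.32 and 9.36. Coro7 (Y15054_at) stood at 10.69 on WKY collateral 3, against 9.75 to 9.90 on the other WKY collateral arrays. Mgat1 (E07296cds_s_at) stood at 6.69 on WKY collateral 2, against 7.88 to 8.06. Without that array the Mgat1 difference was 1.59, the lowest of its fits with an array left out.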

How the results depend on the processing

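No setting gave a probe set with an adjusted p under 0.05 for the strain difference, the WKY change or the SHR change (0 in each of 28 settings, limma). All 34 named probe sets kept their sign in each setting that tested them, 23 of them under the 60th percentile filter. As they were chosen by a small p on these same arrays, the kept sign is no added evidence. With the 3′ to 5′ ratio as a covariate 23 of 34 kept an unadjusted p under 0.05. Of 1063 list medians under alternatives, 26 moved by more than the spread between arrays.

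Counts of unadjusted p under 0.05 moved more. With 15 arrays, the 80 above 0 became 136 with no filter, 32 with the 60th percentile filter and 138 with array weights. The 44 below 0 became 70 with equal array medians, 138 with array weights and 89 with spike-in signal as a covariate. Without SHR collateral 3, the 38 above 0 became 70 with no filter, 17 with the 60th percentile filter, 164 with array weights, 62 with the replicate number as a random block, 91 with the 3′ to 5′ ratio and 79 with the spike-in signal as a covariate, and the 72 below 0 became 41 with the 60th percentile filter, 189 with array weights and 110 with the spike-in covariate.

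The 39 probe sets of opposite direction became 69 with no filter, 17 with the 60th percentile filter, 147 with array weights, 89 with the 3′ to 5′ ratio and 67 with the spike-in signal. The 12 of WKY alone became 19 with no filter, 42 with array weights, 20 with the random block and 25 with the spike-in signal. The 5 of SHR alone became 11 with quantile normalization, 10 with equal medians, 9 with a constant added, with dim signals raised to the 20th percentile or with the random block, 8 with no filter or the 3′ to 5′ ratio, 12 with no variance trend, 42 with array weights and 14 with the spike-in signal. The cause of these moves was not tested, but the filters change the number of probe sets tested, to 8740 with none and 4329 at the 60th percentile.

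With each array left out, counts ran from 38 to 230 above 0 and 29 to 94 below, and from 34 to 96 and 66 to 119 in fits that also lacked SHR collateral 3. Opposite direction ran from 34 to 88 (88 without SHR collateral 4), WKY alone from 4 to 32 and SHR alone from 3 to 21.

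The labels do not say whether equal replicate numbers pair the arrays, and 7 pairs are too few to decide it. Over these pairs the correlation of deviations ran from -0.0696 to 0.306, and 2 were over 0.1. Of 7 control arrays, 4 correlated best with their own number. With the replicate block 0 probe sets passed, 29 of 34 named probe sets had a small p, and the 14-array count above 0 was 60.

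Limits: with 3 to 4 arrays a group, the median standard error of 0.73 leaves modest differences undetectable, and dim probe sets have no reliable size.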

Other observations

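Besides the genes described above, 22 named genes had a probe set with an unadjusted p under 0.05 in both fits. Those given here were chosen after their values were seen, and 0 passed adjustment in limma. Below 0 were Arf6, a GTPase of membrane traffic and the actin cortex, and Tgfbrap1, which binds TGF-beta receptors. Arf6 (rc_AA944324_at) was bright, at 2125, 1782 and 1739 in WKY control and 2965, 3461, 2346 and 3316 in WKY collateral arteries without overlap, while SHR read 2924, 2262, 3045 and 3114 against 2438, 2748, 931 and 3046. Its difference was -1.10 ± 0.46 (SE; 14 arrays -0.72). Tgfbrap1 (rc_AA893532_at) read 624, 728, 555 and 571 in SHR control and 482, 434, 315 and 246 in SHR collateral arteries without overlap, and its difference was -1.20 ± 0.48 (14 arrays -1.14).

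Dnm1, a dynamin of endocytosis, stood at -1.73 ± 0.66 (SE; 14 arrays -1.96), and its SHR groups were apart without SHR collateral 3, at 699, 716, 1212 and 691 against 492, 408 and 385. Above 0 were C5ar1, the receptor for complement C5a, at 1.84 ± 0.69 (14 arrays 1.57), and the cytoskeletal linker Plec at 1.5 ± 0.54 (14 arrays 1.31). Both have a brighter probe set that did not show it, at -0.14 for C5ar1 and -0.22 for Plec.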
